A study of Zea mays with 11 samples.

Results

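Whole seed of the maize inbred line Mo17 was compared at day 3 and day 5 after pollination. Methylation of cytosines was measured by bisulfite sequencing of genomic DNA, and the deposited tables give it per gene model for the gene body and for an upstream region. The comparison rests on 2 of the 11 libraries of the series, 1 library at each age. The other libraries are 8 of dissected endosperm, taken at 8 ages from day 7 to day 25, and 1 of ear leaf of day 13, the study's control tissue. All plants were field-grown Mo17, with no treatment, pollinated with their own pollen on the same day, and the tissue was dissected by hand. The labels do not say how many ears or plants went into a library, and no stage has a replicate. A difference between day 3 and day 5 is therefore a difference between 2 libraries, and age cannot be told apart from the library.

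Plants methylate cytosines in 3 sequence contexts, CG, CHG and CHH, where H is A, C or T. CG methylation is copied after replication by the MET1 class of enzymes, CHG methylation by chromomethylases that read a histone mark, and CHH methylation has to be set anew, largely through small RNAs. In maize, CHH methylation lies mostly in short islands close to genes, next to transposons. A whole seed of this age holds the maternal pericarp and nucellus, a small embryo and an endosperm that passes from free nuclei to cells. Endosperm is known for demethylation of the maternal genome. Since a level is an average over all cells of the sample, a change in the make-up of the seed and a change of methylation within a cell type cannot be told apart.

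Of the 39475 nuclear gene models, 38669 had at least 20 calls in both seed libraries in at least 1 of the 6 measures, that is, 2 regions in 3 contexts. A call is one cytosine read once as methylated or unmethylated. The day 3 library held 154315521 calls and the day 5 library 195795323, counted where the methylated count was above 0. The median tested gene body had 309 CG calls at day 3 and 408 at day 5, and the median upstream region 273 and 347. Taken over the 3 contexts, the ratio of calls at day 5 to calls at day 3 had a median of 1.31 for gene bodies, with 5th and 95th percentiles of 0.797 and 2.19. For upstream regions the median ratio was 1.25, with percentiles of 0.755 and 2.19. Single genes stood far outside this range. The upstream region of tub4, a beta-tubulin gene, had 4245 calls at day 3 and 363 at day 5.

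Mean methylation as deposited was lower at day 5 in all 6 measures, 3 of which reversed with the chloroplast level subtracted. The relative difference was largest for CHH upstream of genes. The mean CHH level of upstream regions was 6.15% at day 3 and 5.23% at day 5 over 38153 genes, a difference of −0.917 percentage points. In gene bodies the mean CHH level was 2.43% and 2.17%, a difference of −0.263 points over 34897 genes. The symmetric contexts differed by less in proportion to their level. Mean CG methylation was 63.0% and 61.4% upstream and 30.9% and 30.2% in the body, with differences of −1.62 and −0.770 points. Mean CHG methylation was 55.7% and 54.3% upstream and 22.0% and 21.3% in the body, with differences of −1.40 and −0.757 points. Counting error gives these 6 differences 95% half-widths between 0.012 and 0.048 points, which leaves out all error between samples. The mean difference was below 0 on each of the 10 chromosomes in every measure, and for upstream CHH it ran from −1.03 to −0.793 points.

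The sign of the mean difference in body CG, body CHG and upstream CHG, and the size of all 6, depended on how the chloroplast level was treated. Chloroplast gene models, whose DNA is taken to carry no methylation, had CHH levels of 1.07% at day 3 and 0.854% at day 5, CG levels of 7.59% and 6.19% and CHG levels of 8.14% and 6.69%, so they too were lower at day 5. Mitochondrial models had 2.22% and 2.31% CG, 3.06% and 3.01% CHG, and 0.825% and 0.838% CHH. Both organelle levels leave out entries with a methylated count of 0. That can only raise a level, by an amount that was not measured and may differ between libraries. Chloroplast CG and CHG thus lay far above chloroplast CHH, and no treatment used the mitochondrial levels. Whether the chloroplast level is a background shared by nuclear genes was not tested. With the chloroplast level subtracted from every gene, the mean difference was 0.635 points in body CG, 0.691 in body CHG and 0.0510 in upstream CHG, that is, higher at day 5. It was −0.0510 points in body CHH, −0.215 in upstream CG and −0.706 in upstream CHH. Rescaling each level to the range above the chloroplast level gave 0.298, 0.506 and −0.0544 points in the body and −1.13, −0.749 and −0.723 points upstream. The same rescaling with negative levels set to 0 gave −0.381, −0.534 and −0.145 points in the body and −1.24, −0.924 and −0.744 points upstream. In body CHG 61.0% of genes lay below the chloroplast level at day 3, in body CG 43.0% and in upstream CHH 7.34%. The lower mean at day 5 thus kept its sign under all 3 treatments in both CHH measures and upstream CG only. The median gene differed by −0.226, −0.152 and −0.0596 points in the body and by −1.50, −1.09 and −0.430 points upstream. A level taken over all calls, in which long and deeply read genes weigh more, differed by −2.63, −3.29 and −0.355 points in the body and by −2.61, −2.45 and −1.11 points upstream.

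**Figure D1:**
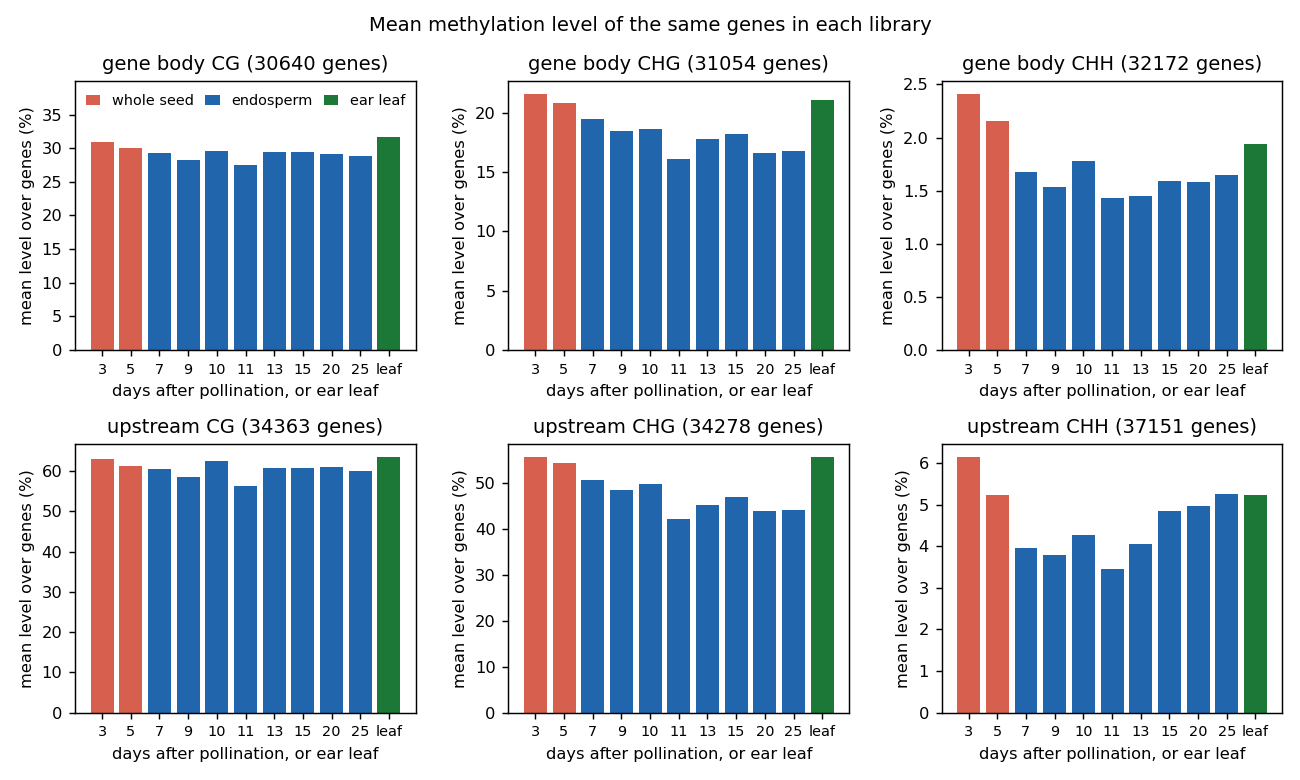
Mean methylation level (%, vertical axis) of the genes with at least 20 calls in all 11 libraries, by library (days after pollination or ear leaf, horizontal axis), for each region and context. Bars are means over genes of 1 library each and carry no replicate error; day 3 lies above day 5 in all 6 panels of levels as deposited, which for body CG, body CHG and upstream CHG reverses with the chloroplast level subtracted.

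Single genes differed in both directions around these means. The standard deviation over genes of the difference was 7.89 points for body CG, 5.95 for body CHG and 2.55 for body CHH. Upstream it was 10.3, 9.58 and 4.05 points. Counting alone would give 3.15, 2.88 and 1.19 points in the body and 4.36, 4.71 and 1.56 points upstream, so the observed spread was 2.04 to 2.60 times the counting spread. Calls on one read are not independent, which counting error takes them to be. The share of genes with a lower level at day 5 was 59.6% for upstream CHH, 59.7% for upstream CG and 57.5% for upstream CHG, and between 52.2% and 53.6% in the body. Levels of the same gene at the 2 ages had a Pearson correlation across genes of 0.973 for body CG and 0.981 for body CHG. It was 0.739 for upstream CHH and 0.733 for body CHH. Genes are not independent replicates, and both libraries share the gene's sequence and its coverage.

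**Figure D2:**
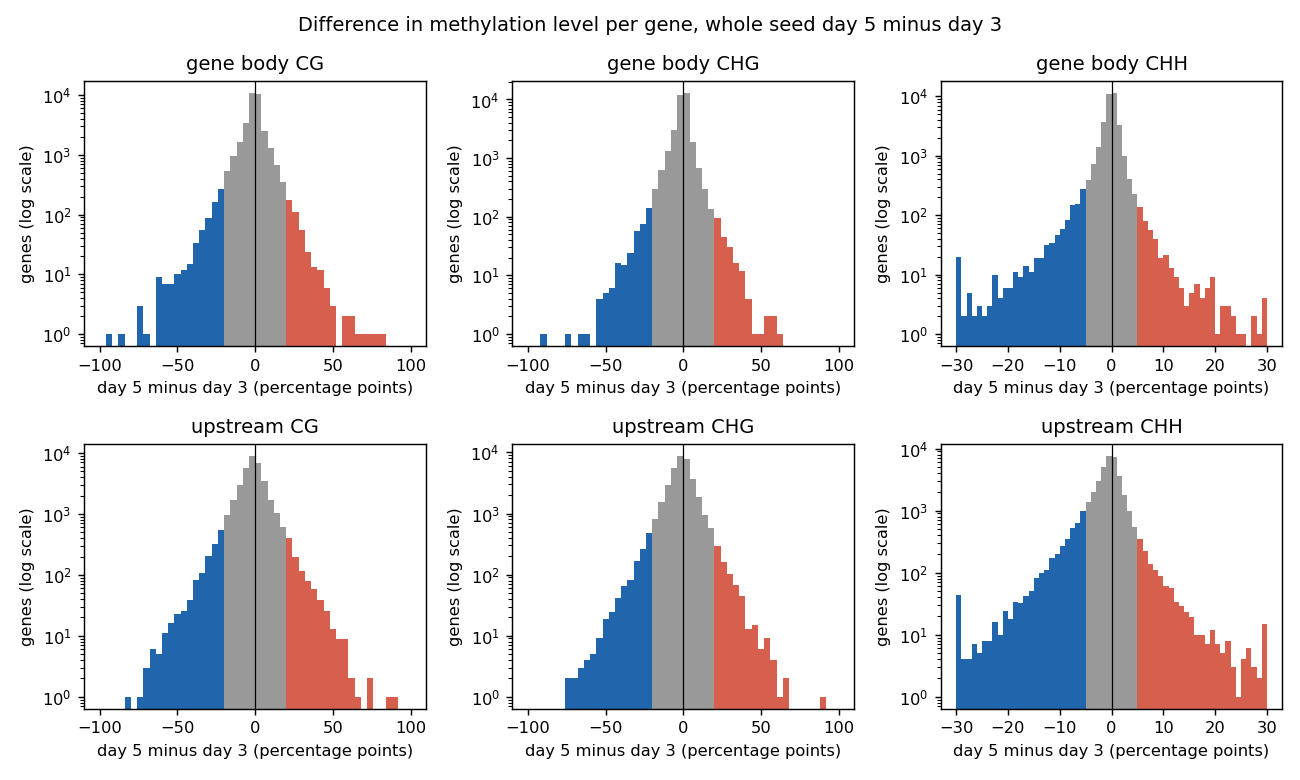
Number of genes (vertical axis, log scale) by difference in level, day 5 minus day 3 in percentage points (horizontal axis), for each region and context. Coloured bars lie at or beyond 20 points for CG and CHG and 5 points for CHH, blue for lower and red for higher at day 5; the outermost CHH bars also hold the genes beyond 30 points, and the lower side is the heavier one for upstream CHH.

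A gene was called different when Fisher's exact test, two-sided and Benjamini-Hochberg adjusted over all genes of the measure, gave an adjusted p under 0.05 and the levels differed by at least 20 points in CG or CHG or 5 points in CHH. The test compares 2 libraries and not 2 ages. Upstream CHH had the most calls, with 4096 of 38153 genes (10.7%), of which 3238 were lower at day 5 (8.49%) and 858 higher (2.25%). Upstream CG gave 2089 genes (5.73%), 1255 lower (3.44%) and 834 higher (2.29%), and upstream CHG 1528 genes (4.21%), 976 lower (2.69%) and 552 higher (1.52%). In gene bodies 1001 genes were called in CG (3.00%), 626 lower (1.87%) and 375 higher (1.12%). Body CHG gave 444 genes (1.32%), 291 lower (0.862%) and 153 higher (0.453%), and body CHH 938 (2.69%), 714 lower (2.05%) and 224 higher (0.642%). When every gene's calls were divided by 10, as a guard against calls that share a read or a PCR copy, between 2 and 13 genes per measure were still called. The test thus rests on the assumption that calls are independent. Division also leaves few calls to test, as called upstream CG regions had a median of 106 and 142 calls before it. The loss therefore cannot tell shared reads from a lack of calls. By size alone, without the test, 1086 genes passed in body CG, 2345 in upstream CG and 1415 in body CHH. A level listed at 0 carries no total of its own, and the total was then estimated from the gene's other contexts; 127 called genes in upstream CHH and 9 to 70 in the other measures rest on such a total. One of them is GRMZM2G311162, with body CG at 95.2% at day 3 and listed at 0 at day 5, while its body CHG was 90.4% and 81.7% and was not called. Near the size limit the rule separates genes that hardly differ: for upstream CHH the smallest difference called was 5.00 points and the largest left out was 4.998 points.

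The same rule was applied to the 7 pairs of neighbouring endosperm libraries, as a measure of how far 2 single libraries of one tissue differ. These pairs called 5.44% to 10.5% of genes in upstream CHH and 1.13% to 1.76% in body CHH, below the seed pair in both. In CG and CHG the order was the other way round. Endosperm pairs called 5.98% to 13.1% in upstream CG, 4.27% to 12.6% in upstream CHG, 3.28% to 5.96% in body CG and 1.68% to 4.38% in body CHG, above the seed pair in all 4 measures. The difference in mean upstream CHH level was also smaller in each of the 7 endosperm pairs, at most 0.819 points in size. In upstream CHG 6 of the 7 exceeded the seed pair. These orders are shown for levels as deposited only. With the chloroplast level subtracted, the seed pair differed by −0.706 points in upstream CHH and called 3971 genes. The endosperm pairs were not run with that subtraction. Mean upstream CHH was 6.15% at day 3 and 3.46% to 5.26% in the endosperm libraries, over genes with enough calls in all of them, and the size limit of 5 points is the same in both; its part in the counts was not tested. Neighbouring pairs share libraries and differ in depth and in days, and no test was made between them. From whole seed of day 5 to endosperm of day 7, which is also a change of tissue, 3586 genes were lower and 664 higher in upstream CHH.

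**Figure D3:**
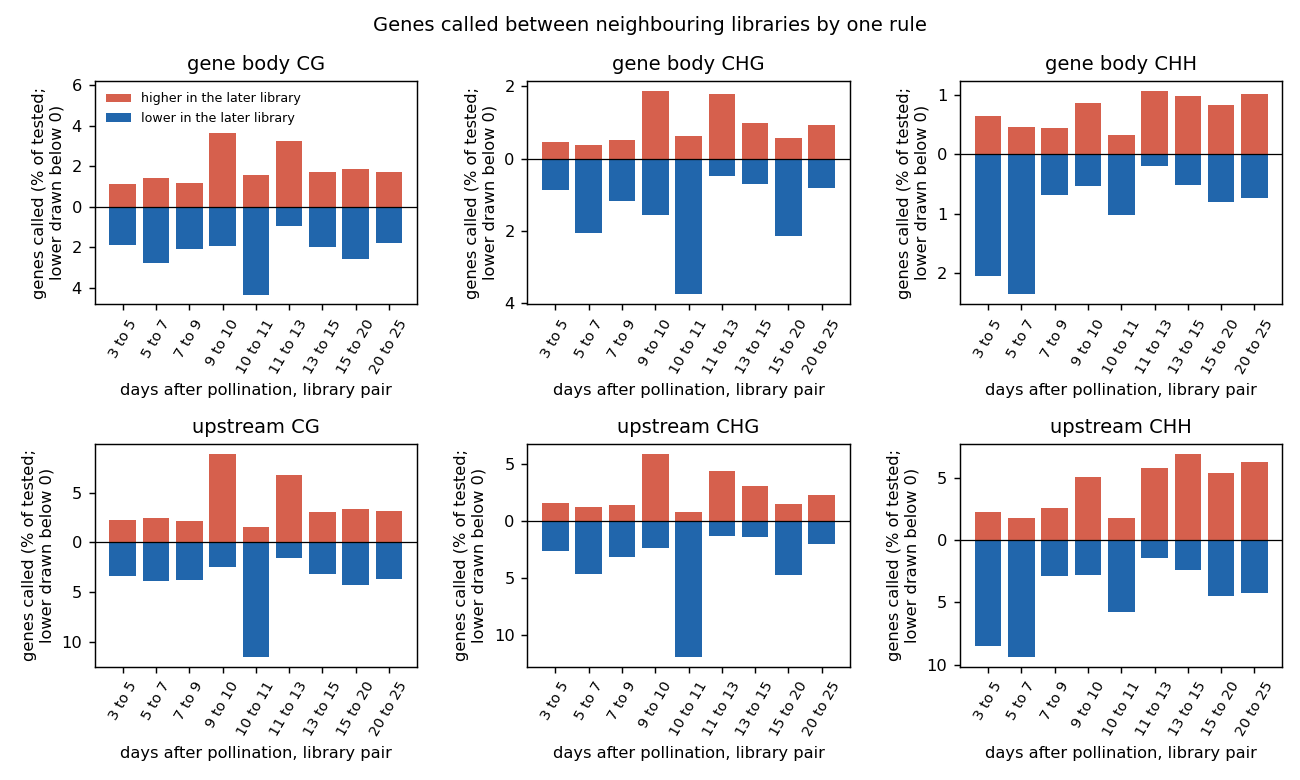
Share of tested genes called higher (red, above 0) or lower (blue, drawn below 0) in the later library (%, vertical axis) for neighbouring pairs of libraries by day after pollination (horizontal axis). The seed pair of days 3 and 5 has 8.49% lower and 2.25% higher in upstream CHH; the pair of days 5 and 7 compares whole seed with endosperm.

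The difference in CHH was larger in genes whose upstream region carries CHH methylation in the leaf, a library that the comparison does not use. For 13156 genes the leaf held 5% CHH or more in this region, and their mean was 10.6% at day 3 and 8.71% at day 5, with 18.0% of genes called lower and 3.61% higher. For 3353 genes with under 1% in leaf, the mean was 2.64% and 2.48%, with 3.64% called lower and 1.91% higher. Gene bodies gave the same order. The 2350 bodies with at least 5% CHH in leaf went from 9.59% to 7.84%, with 15.0% called lower, and the 14871 bodies under 1% went from 1.30% to 1.22%, with 0.686% called lower. In body CG the 9363 genes with at least 50% in leaf had a mean difference of −1.97 points and the 12262 genes under 5% one of −0.0234 points. In body CHG the 18678 genes under 5% in leaf had a mean difference of 0.0196 points. These classes also differ in how far a level can fall before it reaches 0.

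CG and CHG calls overlapped within a region, while body and upstream calls shared few genes, at shares above or below those of all genes. Upstream, 423 genes were called lower in both CG and CHG, 34.8% of those called in CG and 45.0% of those called in CHG, where 941 of all 35850 genes tested in both were lower in CHG. Higher calls in both numbered 244, and 3 genes went opposite ways. In gene bodies 127 genes were lower in both, 20.9% of the CG calls and 46.0% of the CHG calls, and none went opposite ways. Over all 33099 bodies tested in both, 276 were lower in CHG. Of the genes called lower in upstream CG, 248 (19.8%) were also lower in upstream CHH and 37 higher. Of those called higher in upstream CG, 67 (8.04%) were also higher in upstream CHH and 63 lower. Of all 36451 genes tested in both, 3128 were lower and 800 higher in upstream CHH. Between body and upstream CG, 18 genes were lower in both, 3.08% of the body calls, where 1088 of all 31901 genes were lower upstream. Another 14 were lower in the body and higher upstream. Higher in both were 15, 4.17% of the body calls, where 731 of all 31901 genes were higher upstream. In CHG 12 were lower in both, 4.49% of the body calls, and 1 was higher in both, 0.694%. Of all 32107 genes tested in both CHG measures, 863 were lower and 472 higher upstream. A total of 108 upstream regions and 19 gene bodies were lower in all 3 contexts, and 26 and 3 were higher in all 3. A change from at least 50% to under 10% was seen in 15 genes for body CG and 13 for upstream CG, and the reverse in 4 and 13.

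Upstream CHH calls were more frequent where genes lie close together. Genes were put in 4 classes by the number of gene models within 500 kb to either side, of 8782 to 10671 genes each for upstream CHH; the sparsest class had 8.31% called and the densest 13.0%, with mean differences of −0.750 and −1.05 points. In upstream CG the shares were 4.45% and 6.89%. Body CHH gave the opposite order, with 3.26% called in the sparsest and 2.46% in the densest class. Gene models with an entry in RefSeq had 12.3% called in upstream CHH, against 9.33% of models without one. In body CHG the models with an entry had 0.705% called and those without 2.00%. The classes also differ in level. Mean upstream CHH at day 3 was 5.60% in the sparsest and 6.58% in the densest class, and body CHH 2.70% and 2.25%. With and without an entry, upstream CHH was 6.74% and 5.60%, and body CHG 11.7% and 33.6%. In upstream CG the sparsest class had the higher level, 73.6% beside 52.4%, and the smaller share called. The part of the level in these shares was not tested. The density classes, the RefSeq classes and the classes by endosperm level below were added after the counts had been seen.

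The genes called between the seed libraries were read in the other 9 libraries, which the call did not use. For the 3164 genes lower in upstream CHH with enough calls everywhere, the median level was 15.4% at day 3 and 6.66% at day 5. It was 4.74% to 8.17% in the endosperm libraries and 8.76% in leaf, so the day 3 library stood apart and day 5 lay within the range of the rest. The 807 genes higher in upstream CHH had medians of 4.08% and 12.8%, with 3.97% to 6.76% in endosperm and 6.12% in leaf, and here the day 5 library stood apart. Body CHH gave the same picture. Its 648 lower genes had medians of 12.3% and 4.48%, with 2.17% to 3.61% in endosperm and 5.20% in leaf. In CG and CHG the medians of the other libraries lay between the seed values, except for genes lower in upstream CHG, where the lowest endosperm median of 34.6% was under the 37.7% of day 5. The 548 genes lower in body CG had medians of 57.5% and 30.3%, with 35.6% to 40.6% in endosperm and 42.2% in leaf, and the 319 higher genes had 25.8% and 52.1%, with 32.1% to 38.8% and 39.1%. These genes were selected for their difference between the seed libraries, so the seed values are set by that selection.

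Genes with low methylation in endosperm had levels between those of endosperm and leaf in both seed libraries. A set was formed of genes whose mean over endosperm libraries lay below leaf by at least 20 points (CG, CHG) or 5 points (CHH). The seed libraries were not used for it. That choice sets leaf and endosperm apart, so a place between them says little about the seed libraries. For upstream CHG the set held 4288 genes. Their means were 68.4% at day 3, 66.9% at day 5, 57.7% in endosperm of day 7 and 77.0% in leaf. For body CHG its 1670 genes had 73.1%, 71.3%, 60.01% and 79.4%. For body CG the 1229 genes had 51.7%, 50.02%, 38.9% and 65.3%. In these symmetric contexts, upstream CG included, the step from day 3 to day 5 was −1.29 to −1.71 points, beside −0.757 to −1.62 points over all genes. Of the set, 2.93% to 7.27% were called lower, beside 0.862% to 3.44% of all genes. Higher calls were also more frequent, with 1.56% to 4.27% of the set beside 0.453% to 2.29% of all genes. Chloroplast CG and CHG levels differed by a like amount, as given above. In CHH the step was larger. The 3185 genes of upstream CHH went from 12.9% to 10.4%, with 6.55% in endosperm of day 7 and 15.8% in leaf, and 25.0% of them were called lower and 4.90% higher. The 790 genes of body CHH went from 12.0% to 9.60%, with 5.05% and 13.7%. Over all genes 8.49% were called lower in upstream CHH. The opposite set, genes higher in endosperm than in leaf, also had many calls. Its 749 genes of upstream CHH had a mean step of −1.56 points, with 21.0% called lower and 8.68% higher. In the CG and CHG measures its 84 to 489 genes had 10.1% to 11.9% called lower and 5.82% to 8.33% higher. Lower and higher calls were thus both more frequent in both sets than over all genes, and the sets were not tested against each other.

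**Figure D4:**
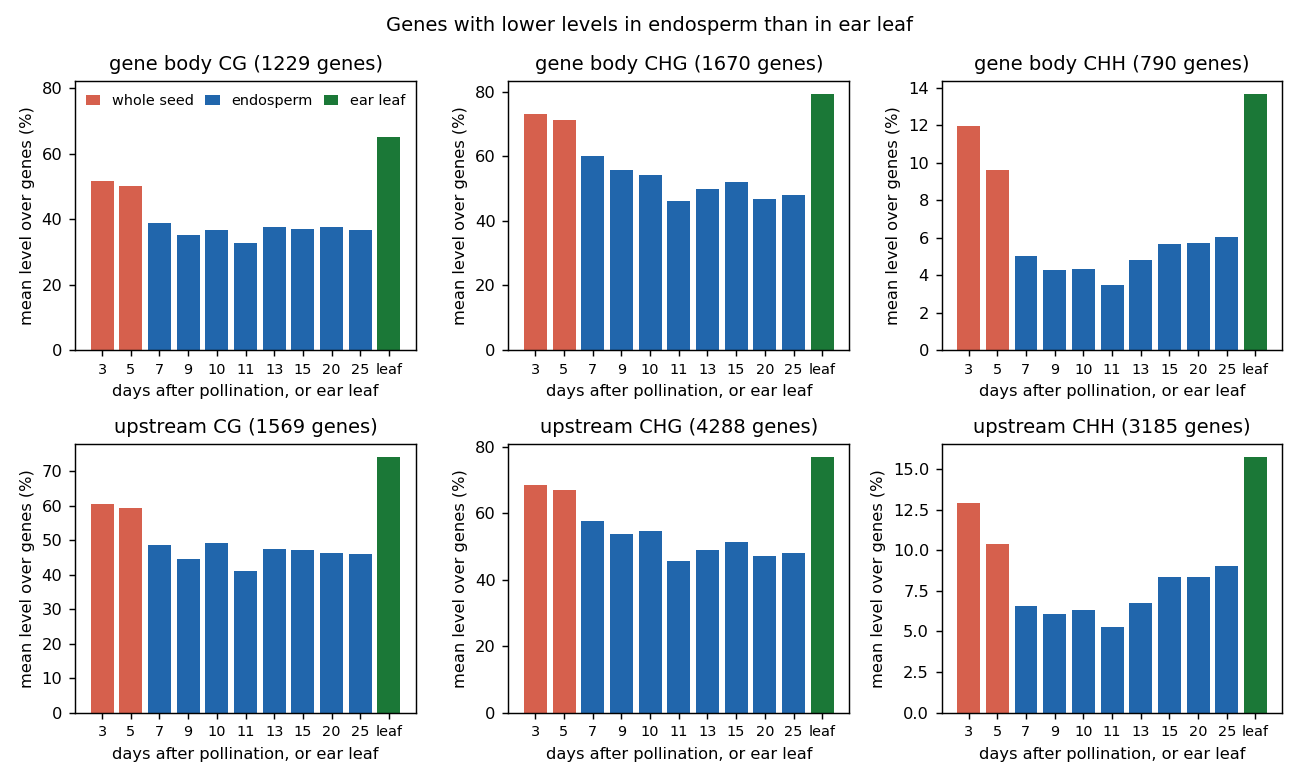
Mean methylation level (%, vertical axis) by library (horizontal axis) of genes whose endosperm mean lies below the ear leaf by at least 20 points in CG or CHG or 5 points in CHH. Endosperm and leaf bars are set apart by that choice; the whole-seed bars, which it did not use, lie between them, with day 3 above day 5.

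None of 14 models of genes known for low methylation in endosperm was called in any of the 6 measures, beside 1.32% to 10.7% of all genes. In CG 13 of them were measured. For so short a list, no call lies near those shares. The list holds fie1, a maternally expressed Polycomb gene, the zein gene fl2 and the prolamin-box factor pbf1. It also holds the esr and meg1 genes of the embryo-surrounding and transfer regions and a few others. The symbol pbf1 stands for 2 of the models. One of them, GRMZM2G146267, was not low in endosperm in body CHG, with 10.9% to 20.9% there and 14.5% in leaf. In body CHG the median over the 14 models was 73.6% at day 3 and 76.6% at day 5, against 69.6% in leaf and 30.1% for the medians of the endosperm libraries, and the median of the single differences was −1.71 points, with 9 of 14 models lower at day 5. Both seed values lay above every endosperm library in 9 of 14 models in body CHG and in 10 of 14 in upstream CHG. The bodies of fie2, mez1, nrp1 and o2 had 5.13% CHG or less in every library, and upstream CHG of nrp1 was 34.9% and 33.7%, with an endosperm median of 39.8% and 22.7% in leaf. The body of fie1 had 60.2% CHG at day 3 (432 calls) and 53.3% at day 5 (484 calls), with 13.9% to 36.5% in endosperm and 65.2% in leaf. The body of fl2 had 93.4% and 87.9%, with 47.5% to 61.3% in endosperm and 94.2% in leaf. The seed values lay above the whole endosperm range in both genes. Methylation does not measure transcripts, so no cell type marker could check the label of whole seed.

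The 11 gene lists held 183 gene models, and their share of calls was above that of all genes in 4 measures and below it in body CHG and CHH. In upstream CHH, 18 of 181 measured models were lower and 6 higher, 13.3% in all beside 10.7% of all genes. In upstream CG 5 were lower and 6 higher of 173, and in upstream CHG 7 lower and 3 higher of 172, that is 6.36% and 5.81% beside 5.73% and 4.21%. In gene bodies 4 were lower and 3 higher of 177 in CG, 1 lower and none higher of 179 in CHG, and 4 lower and none higher of 180 in CHH. These are 3.95%, 0.559% and 2.22%, beside 3.00%, 1.32% and 2.69% of all genes. Lists are described by counts and medians only, and no list was tested. Intervals below are 95% Newcombe intervals of the difference and cover counting error only. Coordinates are those of the deposited tables, and no source used here names their genome build.

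Among 18 starch synthesis genes, 1 was lower in body CHH, 1 lower in upstream CHG, and 2 lower and 1 higher in upstream CHH. Of all genes, 2.05% were lower in body CHH, 2.69% lower in upstream CHG, and 8.49% lower and 2.25% higher in upstream CHH. The median upstream CHH difference of the list was −0.175 points, beside −0.430 over all genes. The waxy gene wx1 (chromosome 9, 23256308 to 23260236, minus strand) encodes the granule-bound starch synthase that makes amylose. Its upstream CHG level was 42.4% at day 3 (368 calls) and 20.0% at day 5 (350 calls), a difference of −22.4 points (interval −28.8 to −15.7, adjusted Fisher p = 9.5e-09). Upstream CG of wx1 was 28.8% and 12.8%, under the size limit, while the body held 2.08% or less in every context at both ages. The day 3 value of upstream CHG lay within the endosperm range of 17.5% to 49.5% and the day 5 value near the leaf, at 24.3%.

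Of the starch synthase genes, su2, which encodes the isoform IIa, had 12.4% upstream CHH at day 3 (1453 calls) and 6.34% at day 5 (1483 calls), with 1.67% to 6.11% in endosperm. In ss1, which encodes isoform I, the order was reversed, with 6.74% (386 calls) and 14.5% (675 calls) and an interval of 3.94 to 11.3 points. The upstream region of pho1, the plastidial starch phosphorylase, had 10.2% and 5.16% (3555 and 3140 calls), with 4.63% to 8.43% in endosperm. The difference of pho1, 5.08 points, is just past the size limit. The gene bt1 (chromosome 5, 112928080 to 112930204) encodes the carrier of ADP-glucose into the amyloplast. Its body had 6.19% CHH at day 3 (679 calls) and 1.08% at day 5 (1296 calls), with CG at 5.24% and 2.63% and CHG at 5.99% and 1.07%. In endosperm the ranges were 0 to 2.08% for CG, 0.96% to 5.68% for CHG and 0.23% to 1.68% for CHH, and in leaf the levels were 0.50%, 1.05% and 0.28%, so the day 3 library was highest in all 3 contexts. With the chloroplast level subtracted, the differences of bt1 and pho1 were −4.89 and −4.87 points and no longer reached the limit.

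Among 12 genes of sucrose use, 1 was called, in upstream CHH, where 10.7% of all genes were called. The cell-wall invertase gene incw3 had 19.2% at day 3 (442 calls) and 10.2% at day 5 (569 calls), with an endosperm range of 1.80% to 27.1% that spans both.

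The 27 storage protein genes and their regulators had 5 members lower and none higher of 26 in upstream CHH, beside 8.49% of all genes called lower. The median difference of the list was −0.585 points. The upstream region of glb1, the globulin gene of the embryo (chromosome 1, 258363413 to 258366718), had 30.3% CHH at day 3 (238 calls) and 10.8% at day 5 (490 calls), a difference of −19.4 points (interval −26.0 to −13.2). For nkd1, a zinc finger factor of aleurone differentiation, the values were 15.0% (539 calls) and 2.37% (675 calls), a difference of −12.7 points. For zp27, the gamma zein gene, they were 27.9% and 18.7% with 3375 and 3355 calls. In pdi7, a protein disulfide isomerase gene, upstream CHH was 29.7% and 19.9%. In all 4 genes the day 3 value lay within the endosperm range, which reached 32.0%, 17.3%, 29.1% and 42.4%.

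Upstream CG of zp27 was 59.5% and 43.0%, and CHG 56.4% and 43.3%, both lower but under the size limit. The body of pdi7 differed in the other direction, with CG of 23.8% at day 3 (412 calls) and 43.8% at day 5 (534 calls), above the endosperm range of 14.9% to 35.4% and beside 40.1% in leaf. In nkd2, the duplicate of nkd1, upstream CG was 7.41% of 81 calls and 65.5% of 29 calls, an interval of 38.3 to 73.2 points. The region had 326 calls at day 3 and 111 at day 5 in all contexts, and endosperm ran from 0 to 52.1%. The delta zein gene dzs18 was lower in body CG, with 59.1% of 22 calls and 19.0% of 42 calls, and in upstream CHG, with 63.6% of 22 calls and 23.5% of 68 calls. Few calls lie behind nkd2 and dzs18, and the intervals of dzs18 span more than 40 points.

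Of 16 genes of the transfer layer, the embryo-surrounding region and the aleurone, 1 each was lower in upstream CG, CHG and CHH. In body CG 1 was higher. The shares of all genes were 3.44%, 2.69% and 8.49% lower upstream and 1.12% higher in body CG. Upstream CHH of betl1, which marks the basal transfer layer (chromosome 2, 224995417 to 224996267), was 31.2% at day 3 (413 calls) and 10.6% at day 5 (461 calls), with 2.95% to 16.3% in endosperm and 11.2% in leaf. The day 3 library stood above all others. Its body had too few calls to be compared. The body of betl2, of the same layer, had 45.3% CG (64 calls) and 76.5% (179 calls), with 31.8% to 73.0% in endosperm. Upstream of vpp1, which encodes a vacuolar proton pyrophosphatase, CHG was 74.0% (508 calls) and 46.7% (718 calls), a difference of −27.4 points (interval −32.5 to −22.0), and CG was 71.2% and 47.1%. The day 3 values of vpp1 lay above the endosperm ranges, which reached 57.4% in CHG and 66.0% in CG. In upstream CG 14 of the 16 genes of the list had lower values at day 5, with a median of −4.56 points beside −1.50 over all genes. The photosynthesis list, with no known role in the transfer layer, had 9 of 10 lower and a median of −6.54 points, and the pigment list a median of −4.48 points.

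None of the 7 Polycomb and imprinted genes was called, beside 1.32% to 10.7% of all genes by measure. Of 18 genes of DNA methylation and small RNA-directed methylation, 1 was higher in upstream CG, and 1 was lower and 1 higher in upstream CHH. Of all genes, 2.29% were higher in upstream CG, and 8.49% were lower and 2.25% higher in upstream CHH. The called genes mbd106, mbd113 and mbd105 all encode proteins with a methyl-CpG-binding domain. In upstream CHH, mbd113 was the lower and mbd105 the higher one. Upstream CG of mbd106 (chromosome 1, 175294828 to 175302644) was 50.4% at day 3 (834 calls) and 80.3% at day 5 (704 calls), a difference of 29.9 points (interval 25.3 to 34.3, adjusted Fisher p = 7.9e-32). The endosperm libraries, at 56.3% to 71.2%, lay between both ages, as did the leaf at 58.1%. Upstream CHG of mbd106 was 59.5% and 69.2% and CHH 20.5% and 16.2% and neither was called. Upstream CHH of mbd113 was 22.8% and 14.3% with 3742 and 3878 calls, and its CG and CHG were also lower, 84.0% and 69.9%, and 71.3% and 55.2%. Upstream CHH of mbd113 was 3.64% to 16.3% in endosperm and 6.53% in leaf, so that day 3 was above all other libraries.

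Among 18 other chromatin factors, 1 was lower in body CG and 1 in body CHG, hdt103 in both cases. Upstream, 1 was lower and 1 higher in CG, 1 was lower in CHG and 1 lower in CHH. Of all genes, 1.87% were lower in body CG and 0.862% in body CHG. Upstream, 3.44% were lower and 2.29% higher in CG, 2.69% lower in CHG and 8.49% lower in CHH. The gene hdt103 (chromosome 6, 161231386 to 161234113) encodes a plant-specific histone deacetylase. Body CHG was 42.3% at day 3 (149 calls) and 21.4% at day 5 (257 calls), a difference of −20.9 points (interval −30.1 to −11.5), and body CG was 56.6% and 34.3%. With the chloroplast level subtracted, the CHG difference was −19.4 points, under the limit. Endosperm had 3.75% to 21.7% CHG and the leaf 16.0%, so the day 3 library stood above all 10 others. Upstream CG and CHG of hdt103 were 56.3% and 53.7%, and 59.9% and 56.7%, and its body CHH was 0.42% and 1.14%.

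Of 17 embryo and seed maturation genes, 2 were lower in body CHH, while 2 were higher in upstream CG, 2 in upstream CHG and 3 in upstream CHH, where 1 was lower. Over all genes 2.05% were lower in body CHH, and 2.29%, 1.52% and 2.25% were higher in the upstream measures. Body CHH of vp1, the B3 factor of seed maturation (chromosome 3, 162799871 to 162804955), was 12.3% at day 3 (4228 calls) and 6.92% at day 5 (5954 calls), a difference of −5.38 points (interval −6.58 to −4.21). Endosperm had 5.34% to 11.2% and leaf 8.43%. In vp8, the maize counterpart of the Arabidopsis gene AMP1, body CHH was 14.3% (3429 calls) and 7.09% (4358 calls), both above the endosperm range of 1.06% to 3.84% and the leaf at 2.57%. Upstream CHG of vp8 went the other way, with 17.9% (234 calls) and 40.5% (242 calls).

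The gene vp14 (chromosome 1, 250892567 to 250895242) encodes an enzyme of abscisic acid synthesis, and its upstream region was higher at day 5 in all 3 contexts. CHG was 34.5% at day 3 (139 calls) and 68.0% at day 5 (75 calls), CG 37.9% and 62.5%, and CHH 8.19% and 16.5%. Its body held 1.73% or less in every context. The endosperm range of vp14 was wide, 16.8% to 69.8% in CHG, and the leaf had 20.5%. Upstream CG of rab17, a dehydrin gene that responds to abscisic acid, was 66.8% (232 calls) and 87.8% (427 calls), with day 3 within and day 5 above the endosperm range of 56.0% to 71.8%. Upstream CHH of dhn2, another dehydrin gene, was 7.68% and 16.1%, with day 5 above the endosperm maximum of 13.1%, while its upstream CG was 20.5% and 22.3%.

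**Figure D5:**
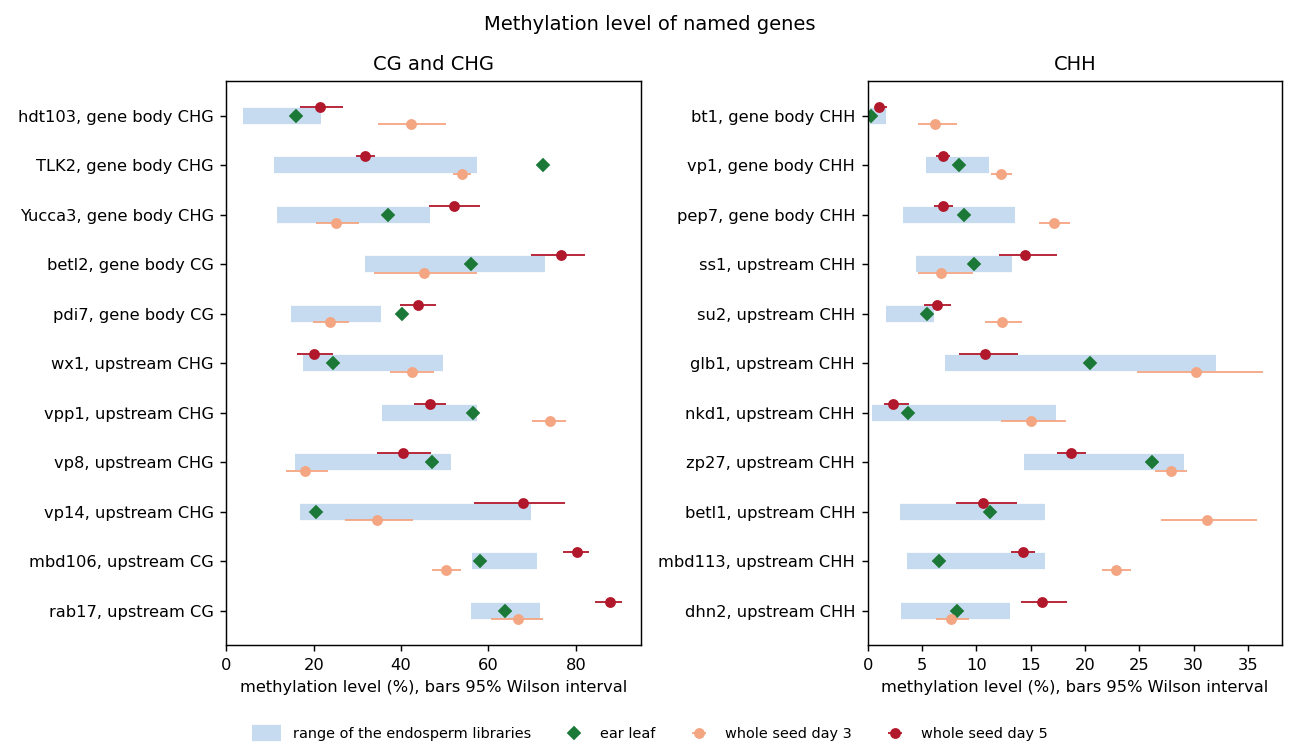
Methylation level (%, horizontal axis) of 22 genes called between the seed libraries, CG and CHG at left and CHH at right; points are whole seed at day 3 (light) and day 5 (dark) with 95% Wilson intervals for counting error, bars the range of the 8 endosperm libraries and diamonds the ear leaf. Examples with the day 3 point above the whole endosperm range and the day 5 point not above it are betl1, mbd113, vpp1, hdt103 and bt1. In su2 both points lie above it, day 5 at 6.34% just above 6.11%.

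The pigment genes and the lists of photosynthesis and housekeeping genes, which have no seed function in common, held called members as well. Of 15 flavonoid and anthocyanin genes, 1 was lower in body CG, 1 in upstream CG and 2 in upstream CHH, and none was higher. The shares of all genes called lower were 1.87%, 3.44% and 8.49%. Body CG of pac1, a WD-repeat regulator of the aleurone pigment, was 50% at day 3 (92 calls) and 23.1% at day 5 (251 calls), with 6.90% to 30.3% in endosperm and 35.1% in leaf. Upstream CHH of a2, the anthocyanidin synthase gene, was 23.8% and 16.2%, with 5.31% to 15.7% in endosperm. Body CHH of pep7, a phosphoenolpyruvate carboxylase gene of the photosynthesis list, was 17.2% (2756 calls) and 6.90% (3246 calls), a difference of −10.3 points, with CHG at 29.6% and 13.4%. Of the 23 housekeeping genes, 3 were lower and 1 higher of 21 in upstream CHG, beside 2.69% and 1.52% of all genes. In upstream CG 2 were lower and 1 higher of 22, beside 3.44% and 2.29% of all genes. Upstream CHG of gpc2, a cytosolic glyceraldehyde phosphate dehydrogenase gene, was 67.9% of 56 calls and 18.6% of 291 calls. Upstream CHG of tub4 was 74.8% of 794 calls and 49.0% of 51 calls. In gpc2 and tub4 the number of calls differed between the ages far more than in the median gene.

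Large differences were also found among genes with a symbol outside these lists. TLK2 (chromosome 5, 7223754 to 7240165) had 53.9% body CHG at day 3 (2156 calls) and 31.8% at day 5 (1659 calls), a difference of −22.2 points (interval −25.2 to −19.1), and body CG of 88.1% and 70.0%. Its upstream CG was 31.2% and 52.7%, called higher, so body and upstream region differed in opposite directions. Endosperm spanned 10.9% to 57.4% in body CHG, and the leaf had 72.6%. Yucca3, a gene of auxin synthesis (chromosome 4, 14167140 to 14190894), had 25.2% body CHG (302 calls) and 52.2% (276 calls), with CG of 36.4% and 53.1%. Upstream CHH of Yucca3 was 2.93% and 10.8%, also called higher. Day 5 was above all endosperm libraries and the leaf in body CHG of Yucca3, where endosperm reached 46.7%.

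Upstream regions whose number of calls differed most between the libraries were called different more often. In upstream CG, 5.22% of the 33943 genes within a factor of 2 of the median ratio of calls were called, 12.1% of the 1451 genes between a factor of 2 and 4, and 35.1% of the 57 genes beyond a factor of 4. In upstream CHG the shares were 3.75%, 10.4% and 22.2%, and in upstream CHH 10.5%, 16.4% and 21.0%. Gene bodies were less uniform, with 2.89%, 6.57% and 13.8% in CG, 1.21%, 4.09% and 4.00% in CHG, and 2.87%, 6.38% and 0 of 39 genes in CHH. Within a factor of 2, the mean difference was −1.60 points in upstream CG and −0.961 in upstream CHH, and the part that coverage has in single calls was not tested.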

How the data were processed

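Bisulfite sequencing libraries of maize Mo17 whole seed at days 3 and 5, endosperm and ear leaf were analysed, 1 library a stage. Per the submitters' processing notes, cutadapt, Bowtie2 and Bismark were used. No source read here names their versions, the genome build, the annotation or how wide an upstream region was. Per the file headers, the deposited tables give for each gene model and context the methylated cytosine count and the methylation level in percent, for the gene body and the upstream region. The tables give no total, so totals were recovered as the rounded ratio of methylated count to level. Of 2378450 values above 0, 800474 had a rounding range under 0.1 call, and 100.0% of these gave a whole total within that range. For values listed at 0 a total was derived from that gene's calls in its other contexts, and a listed 0 can also be a context without reads. Chloroplast and mitochondrial levels were taken over values above 0 only.

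The 57 chloroplast and 124 mitochondrial models were kept out of all gene counts, and 39475 nuclear models remained. Genes with at least 20 calls in both seed libraries were compared with Fisher's exact test, two-sided, Benjamini-Hochberg adjusted over all genes of the region and context. A call needed an adjusted p under 0.05 and a difference of 20 points (CG, CHG) or 5 points (CHH). Intervals are 95% Wilson (levels) and Newcombe (differences); they cover counting error only, and calls from PCR copies or from one read are not independent. With 1 library a group no test between ages was possible. For the chloroplast correction, a level was rescaled as level minus chloroplast level over 100 minus chloroplast level, with negative values set to 0; rescaling without that floor and plain subtraction were added after the data had been seen. The procedure was tested on simulated data with independent calls and with changes larger than the size limit. That simulation cannot show how the rule performs on calls that share a read or a PCR copy. Python 3.11.15, numpy 2.4.6, pandas 2.3.3, scipy 1.17.1, numba 0.67.0 and matplotlib 3.10.9 were used.

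Gene symbols came from RefSeq for the assembly Zm-B73-REFERENCE-NAM-5.0, in which 18775 nuclear models matched and 2224 had a symbol; none of its coordinates or sequences is given. The members and gene lists were chosen with earlier results of these data known. The 11 lists hold 367 symbols, found in 183 models. After list values had been printed, the definition of a symbol was widened and 11 wrongly matched models were removed. The named-gene rule took, per region and context, up to 4 called members of each list by size, or the largest where none was called, and the 5 largest increases and decreases among called genes with a symbol, and the 2 largest of each among those without; of the 128 genes it gave, 30 are described, picked after their values were seen. Alternatives covered the minimum of calls, the size limit, the weighting of genes, the chloroplast level, estimated totals and calls divided by 10.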

Additional observations from a re-analysis of the deposited data

Results flagged for a closer look

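Chloroplast gene models in all 3 contexts and mitochondrial models in CHH, which no comparison above counts as genes, had higher levels in the whole-seed libraries than in the leaf control. The chloroplast models had 7.59% CG methylation at day 3 (Wilson 95% interval 7.29% to 7.91%) and 6.19% at day 5, beside 2.14% in leaf. In CHG they had 8.14% and 6.69%, beside 2.37% in leaf, and in CHH 1.07% and 0.854%, beside 0.642%. The endosperm libraries lay between 1.88% and 2.82% in chloroplast CG, so both seed libraries were above all others. The mitochondrial models had 0.825% and 0.838% CHH, beside 0.756% in leaf, while in CG they had 2.22% and 2.31% beside 3.77%, and in CHG 3.06% and 3.01% beside 5.17%, below the leaf. Chloroplast calls numbered 146178 at day 3 and 282357 at day 5, 456230 to 1227496 in endosperm and 1268199 in leaf. The CG and CHG levels were highest in the 2 libraries with the fewest chloroplast calls. Levels and calls were both counted where the methylated count was above 0. The part of the entries left out in this order was not tested. In CHH the endosperm library of day 10, at 0.977%, was above day 5. The part of this level in the nuclear differences was not tested beyond the 3 treatments given.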

How the results depend on the processing

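The direction of the mean differences in body CHH, upstream CG and upstream CHH was kept under every alternative run. Those of body CG, body CHG and upstream CHG reversed under a chloroplast treatment added after the data had been seen. With 1 library a group there was no replicate to leave out. No paired analysis was possible because each age has 1 library.

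Counts of called genes, in the order body CG, CHG and CHH, then upstream CG, CHG and CHH, were 3859, 1838, 2173, 6331, 4796 and 8155 at 0.5 times the size limit. At 2 times the limit they were 97, 46, 278, 235, 160 and 1178. With calls divided by 10 they were 13, 4, 12, 5, 2 and 9, and by size alone body CHH had 1415. All other settings kept the counts within 1.5 times, namely at least 10 or 50 calls, Wilson intervals apart, the median difference subtracted, the 3 chloroplast treatments and recovered totals only.

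In the same order, the mean differences in points were −2.63, −3.29, −0.355, −2.61, −2.45 and −1.11 over all calls and −0.226, −0.152, −0.0596, −1.50, −1.09 and −0.430 for the median gene. With levels rescaled to the range above the chloroplast level and negative levels set to 0 they were −0.381, −0.534, −0.145, −1.24, −0.924 and −0.744, and without that floor 0.298, 0.506, −0.0544, −1.13, −0.749 and −0.723. With the chloroplast level subtracted they were 0.635, 0.691, −0.0510, −0.215, 0.0510 and −0.706. With recovered totals only, those that moved were −0.839 (body CG), −0.899 (body CHG), −0.323 (body CHH) and −0.967 (upstream CHH). With at least 10 calls body CG was −0.808 and body CHG −0.794, and with at least 50 calls body CG was −0.717. These values moved by more than counting error, and the cause was not tested. The 66 list medians moved by less than the counting error of a median member with at least 10 or 50 calls. Of 167 calls of named genes, 165 were lost with calls divided by 10 and 4 with rescaling and the floor at 0 (Atg12 and PG2C in body CHG, bt1 in body CHH, pho1 in upstream CHH), 2 without the floor (bt1, pho1) and 3 with subtraction (bt1, pho1 and hdt103 in body CHG). Depth limits single genes: called upstream CG regions had a median of 106 and 142 calls, against 273 and 347 for all tested.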
